A study of Mus musculus with 6 samples.

Results

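The angiopoietin, Tie and Notch genes that signal between and within vessel cells were read in RNA-seq libraries labelled as mouse liver sinusoidal endothelial cells (LSECs), the cells that line the capillaries of the liver. The RNA markers went against this label, since macrophage genes led the libraries, which are therefore called sensitive and resistant libraries. The 10 members were chosen by gene symbol: the angiopoietin ligands Angpt1 and Angpt2, the Tie receptors Tek and Tie1, the Notch ligands Dll4 and Jag1, the Notch receptors Notch1 and Notch4, and the Notch target genes Hey1 and Hes1. Each matched exactly 1 of the 60832 genes of the deposited table. The xenografts were liver metastases of HCT116, a cell line from a human colorectal carcinoma, grown in the mouse liver, and 3 libraries came from bevacizumab-sensitive tumors and 3 from tumors resistant to bevacizumab. Bevacizumab is an antibody against VEGF-A, and the resistant xenografts were generated by repeated dosing of tumor-bearing mice over several weeks. Vehicle mice of such experiments received IgG according to the methods, and the labels do not say what the sensitive group received. The methods list male BALB/c-Nu mice, a nude strain that lacks mature T cells, and neither the labels nor the methods say whether a library came from 1 mouse or several. In both groups the cells were taken with anti-CD146 beads and, according to the labels, cultured for 24 h in DMEM with serum. The methods report LSECs isolated this way as CD146-positive at high purity by flow cytometry, which measures protein, whereas the markers here are RNA. Nothing in the labels says that the replicates of a group came from separate mice, so p-values measure the spread between these libraries, which may be technical.

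Angiopoietins are secreted ligands of TIE2, the receptor tyrosine kinase encoded by Tek. ANGPT1, made mainly by perivascular cells, activates TIE2 and keeps vessels stable, whereas ANGPT2, made by endothelial cells, often acts as its antagonist, and TIE1 has no well established direct ligand and modulates TIE2. Notch receptors are cut by proteases after binding a DLL or JAG ligand on a neighbouring cell, and the released part joins RBPJ in the nucleus to turn on HES and HEY repressors. DLL4 restrains sprouting of vessels and favours arterial identity, JAG1 can oppose it, and NOTCH4 is expressed largely by endothelium, whereas NOTCH1, JAG1 and HES1 are also expressed by many other cell types.

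The libraries held between 17599326 and 20726684 counts on genes, and 3 counts, taken as the floor of detection, correspond to 0.145 to 0.170 CPM, the count scaled to the same total in every library, and this floor covers counting error only. The labelled cell type was checked against its markers. The 12 LSEC genes summed to between 632.9 and 1224 CPM, most of it Stab1, which macrophages can also express, with 588 ± 164 CPM in the sensitive and 577 ± 22.5 CPM in the resistant group (SD, n = 3). Other LSEC genes varied widely: Stab2 had between 29.1 and 142 CPM and Lyve1 between 7.67 and 253 CPM. Clec4g had between 0.809 and 5.69 CPM and Cd209b was at 0 in 3 libraries (both LSEC lectins named after their values were seen). The 15 macrophage and Kupffer cell genes summed to between 24570 and 37660 CPM, led by Marco with 8700 ± 3070 and 5700 ± 1240 CPM (SD, n = 3), and the 16 pan-endothelial genes to between 88.8 and 536.6 CPM, led by Cdh5. In CPM, which is not scaled to gene length, the macrophage sum was between 52.5 and 314 times the pan-endothelial sum of the same library. Mcam, which encodes CD146, the protein the beads bind, had between 0.303 and 3.84 CPM. In replicate 2 of the resistant group 15 of the 16 pan-endothelial genes were at their lowest level of the 6 libraries, with a sum of 88.8 CPM against 286.9 to 536.6 in the other 5. Replicate 2 of the sensitive group stood apart over the whole table, with Pearson's r across genes (not independent replicates) between 0.860 and 0.901 for its pairs and between 0.954 and 0.974 for the others. This library held the lowest level of 47.6% of the genes tested and the highest level of 26%, the largest share on each side. Its 8 neutrophil genes summed to 6173 CPM, the highest of the libraries, against a lowest sum of 192.8.

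Of the 10 members, 9 passed edgeR's filter on low counts, which left 15474 genes, and Angpt1 did not. None of the 9 passed the threshold of 0.05 between resistant and sensitive libraries after adjustment over all genes in edgeR's quasi-likelihood test, which called 0 of the 15474 genes (0%), and DESeq2's Wald test also called 0 of the 9. Before adjustment, the p-values of 2 members lay under 0.05 with either tool, Tek and Notch4, both lower in the resistant group. Over all genes tested this threshold called 476 genes (3.08%) by edgeR and 393 (2.54%) in the lower direction. By DESeq2 it called 732 of the 15474 genes, 608 of them lower. The same 2 members were those whose CPM did not overlap between the groups, a pattern that 3.38% of the genes tested showed in that direction. The log2 fold change was negative for 7 of the 9 members and positive for Jag1 and Notch1, with a median of -0.36, against 0.01 for all genes tested. Over all genes tested it was negative for 7619 and positive for 7855. A lower level of these genes can come from fewer cells of a type in a library or from less RNA per cell, which cannot be told apart in bulk samples, and which cells the members' RNA came from was not tested.

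**Figure D1:**
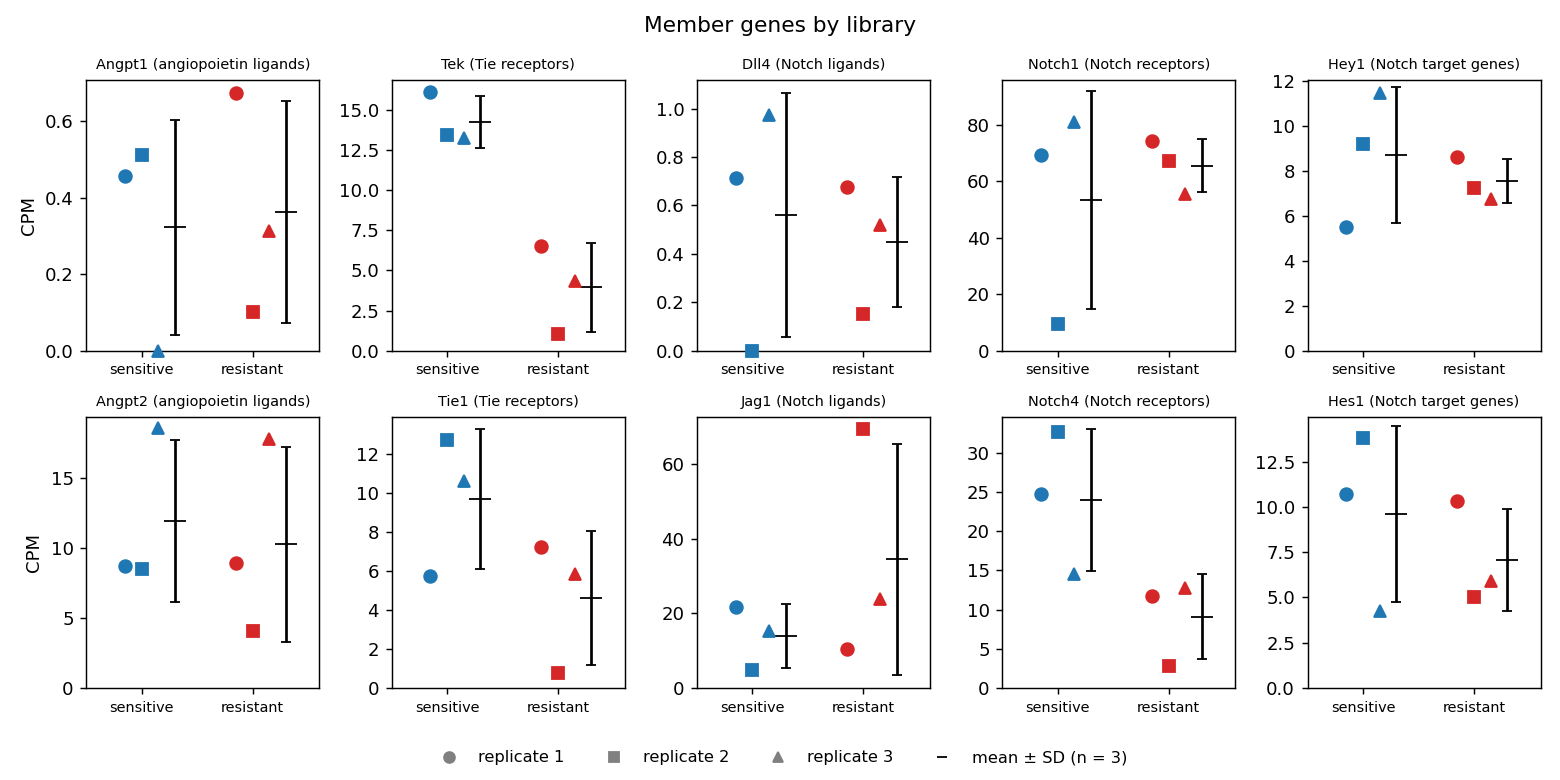
CPM of each of the 10 genes (vertical axis, linear and different for each gene) in the 3 sensitive (blue) and 3 resistant (red) libraries, with replicate numbers as symbols and black bars for the mean ± SD of the 3 libraries. All Tek points of the resistant group, up to 6.51 CPM, sit under the lowest sensitive one at 13.2 CPM, and Jag1 in replicate 2 of the resistant group stands at 69.3 CPM.

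Tek (ENSMUSG00000006386, chromosome 4 of GRCm38, 94739289 to 94874976, plus strand), the receptor for the angiopoietins, was the member with the largest fold change. Replicates 1, 2 and 3 had 16.1, 13.4 and 13.2 CPM in the sensitive libraries and 6.51, 1.01 and 4.32 CPM in the resistant libraries. The sensitive libraries lay close together and every resistant library was well under the lowest of them. The means were 14.2 ± 1.62 CPM (SD, n = 3) and 3.95 ± 2.77 CPM (SD, n = 3). The log2 fold change was -1.94, or 3.82-fold lower, with a standard error of 0.59 and a 95% interval from -3.32 to -0.55. The edgeR test gave an unadjusted p-value of 0.0132 and an adjusted p = 0.940, and DESeq2 gave an adjusted p = 0.231. The exact permutation test of the means on the log2(CPM + 1) scale, two-sided, gave p = 0.1, the smallest that 3 libraries against 3 allow. Without replicate 2 of the resistant group, the library with little endothelial RNA, Tek stood at -1.48 on the log2 scale (unadjusted p-value 0.00537 from edgeR), and without replicate 2 of both groups, an alternative chosen after seeing the data, at -1.46.

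Tie1 (ENSMUSG00000033191, chromosome 4, 118471191 to 118490061, minus strand), which encodes the second receptor of the family, had 5.75, 12.7 and 10.6 CPM in the sensitive group and 7.24, 0.759 and 5.83 CPM in the resistant group. The groups overlapped, because replicate 1 of the sensitive group lay under replicates 1 and 3 of the resistant group. On the log2 scale the difference was -1.20 (standard error 0.75, 95% interval -2.97 to 0.58, adjusted p = 0.940 from edgeR). It moved to -0.69 without replicate 2 of the resistant group.

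Angpt2 (ENSMUSG00000031465, chromosome 8, 18690263 to 18741562, minus strand, overlapping Mcph1 on the other strand with no shared exon) was the more abundant angiopoietin member in every library. It had 8.71, 8.52 and 18.6 CPM in the sensitive and 8.93, 4.05 and 17.8 CPM in the resistant group. Replicate 3 was the highest of each group, and the groups overlapped. On the log2 scale the difference was -0.29 (standard error 0.57, 95% interval -1.64 to 1.06, adjusted p = 0.944 from edgeR), and it turned to 0.17 without replicate 3 of the sensitive group and to 0.09 when replicate 2 of the resistant group was left out. Angpt1 (ENSMUSG00000022309, chromosome 15, 42424723 to 42676977, minus strand) had 9, 9 and 0 counts in the sensitive and 14, 2 and 6 counts in the resistant group, at most 0.675 CPM. With these counts it did not pass the filter and was not tested. Its exons overlap those of the antisense gene Gm17473, and the sources used here do not say whether counting used strand. Per kilobase of gene length, Angpt2 lay between 1.10 and 5.04 FPKM in every library and Angpt1 between 0 and 0.130 FPKM.

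Of the 6 other genes of the Tie pathway, 5 were tested and 0 passed the adjusted threshold with edgeR or DESeq2. Before adjustment 0 lay under 0.05 with either tool, against 3.08% of all genes with edgeR. With replicate 2 of both groups left out 1 did, lower in the resistant group, as did 292 of 15713 genes in that direction. Their median log2 fold change was -0.02, against 0.01 over all genes. Ptprb, the phosphatase that takes phosphate off TIE2, had 13.1, 3.52 and 12.5 CPM in the sensitive and 7.04, 1.37 and 8.22 CPM in the resistant group, with a log2 fold change of -0.85 (standard error 0.70). Tnip2, which encodes an inhibitor of NF-kappa-B that can bind TIE2, had 35.0 ± 8.05 and 26.8 ± 5.84 CPM (SD, n = 3), a log2 fold change of -0.48. Replicate 2 held the lowest Ptprb level of each group, as it did for Pecam1 and Cdh5.

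Notch4 (ENSMUSG00000015468, chromosome 17, 34564268 to 34588503, plus strand), the endothelial Notch receptor, had 24.8, 32.6 and 14.5 CPM in the sensitive libraries (replicates 1, 2 and 3) and 11.8, 2.83 and 12.7 CPM in the resistant libraries. The groups did not overlap, but replicate 3 of the sensitive group lay close to replicates 1 and 3 of the resistant group. The means were 24.0 ± 9.09 CPM (SD, n = 3) and 9.10 ± 5.45 CPM (SD, n = 3). The log2 fold change was -1.50, or 2.84-fold lower (standard error 0.59, 95% interval -2.89 to -0.12), with an unadjusted p-value of 0.0374 and an adjusted p = 0.940 in edgeR's test. The exact permutation p was 0.1, two-sided. With a library left out, the unadjusted call was lost in 4 of 6 fits. With replicate 2 of the sensitive group left out Notch4 stood at -1.11 on the log2 scale (unadjusted p-value 0.120 from edgeR), and with replicate 2 of the resistant group left out at -1.07 (0.0519). With replicate 1 left out the p-value was over 0.05 at a difference no smaller than with all libraries, -1.55 for the sensitive (0.0657) and -1.69 for the resistant group (0.0599). With replicate 3 left out the call was kept, at -1.77 for the sensitive (0.0236) and -1.83 for the resistant group (0.0352). Without replicate 2 of both groups it stood at -0.69.

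Notch1 (ENSMUSG00000026923, chromosome 2, 26457903 to 26516663, minus strand) had 69.4, 9.38 and 81.1 CPM in the sensitive and 74.2, 67.0 and 55.4 CPM in the resistant group. Outside replicate 2 of the sensitive group, the 5 libraries lay between 55.4 and 81.1 CPM. The log2 fold change of 0.29 (standard error 0.63, adjusted p = 0.945 from edgeR) turned to -0.20 without that library. Some of its exons overlap the genes 0610009E02Rik and Gm13568 on the other strand. Within 1 family, Notch1 and Notch4 thus stood in different orders over the libraries: replicate 2 of the sensitive group was the lowest of 6 for Notch1 and the highest of 6 for Notch4.

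Shown are the 250 bases upstream of the RefSeq start of Tek (GRCm38.p6) and part of the same window of Notch4. The Notch4 window was cut to the 223 bases before the first Notch4 exon of another annotation, GENCODE M21. Tek and Notch4 were chosen because they were the 2 members whose groups did not overlap. Capitals mark GGAA on either strand (TTCC on the strand shown), the core letters of the motif of ETS transcription factors.
Tek, chr4:94739039-94739288, plus strand: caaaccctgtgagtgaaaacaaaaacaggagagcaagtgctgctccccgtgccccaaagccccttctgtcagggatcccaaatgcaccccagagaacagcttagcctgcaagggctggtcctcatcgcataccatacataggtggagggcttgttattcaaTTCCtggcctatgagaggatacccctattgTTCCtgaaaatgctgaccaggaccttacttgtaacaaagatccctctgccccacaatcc
Notch4, chr17:34564045-34564267, plus strand: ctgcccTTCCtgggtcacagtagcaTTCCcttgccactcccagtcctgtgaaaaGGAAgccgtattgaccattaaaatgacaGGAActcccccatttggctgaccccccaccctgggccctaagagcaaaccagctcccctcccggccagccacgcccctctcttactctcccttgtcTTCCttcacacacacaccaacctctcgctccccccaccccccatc
Over the 250 bases before the start that the RefSeq table gives, GGAA occurred 2 times for Tek and 5 times for Notch4, and 93.4% of 32851 such windows held it at least once. As many matches or more were found in 76.8% of windows for the count of Tek and in 18.0% for that of Notch4. The longer ETS motif CAGGAAG, searched on both strands like the others, occurred 1 time for Notch4 and not for Tek, and in 10.8% of all windows. The core of the RBPJ motif, TGGGAA, which contains GGAA, occurred in neither and in 21.6% of all windows. These matches describe the letters only. Of the other members, Tie1, Dll4, Jag1 and Notch1 also had a window, and TGGGAA was found in that of Tie1 only, where all but the first 38 of the 250 bases overlap an annotated Tie1 exon and the match lies in the exonic part.

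Among the Notch ligands, Jag1 (ENSMUSG00000027276, chromosome 2, 137081456 to 137116644, minus strand) had 21.8, 4.72 and 15.4 CPM in the sensitive and 10.4, 69.3 and 23.8 CPM in the resistant group. A single library, replicate 2 of the resistant group, held by far the highest level, and the groups overlapped without it. The log2 fold change was 1.32 (standard error 0.77, 95% interval -0.49 to 3.13, adjusted p = 0.940 from edgeR), 0.27 without that library, and -0.13 without replicate 2 of both groups, an alternative chosen after seeing the data. Without replicate 1 of the resistant group it was 1.77 (unadjusted p-value 0.04 and adjusted p = 0.973 from edgeR). In replicate 2 of the resistant group the 11 stellate cell and pericyte genes summed to 287.5 CPM against 63.9 to 136.9 CPM in the others, led by Col1a1, a collagen chain, with 133 CPM. Acta2 followed with 91.7 CPM, whereas Rgs5 was at its lowest there, 0.303 CPM (both named after their values were seen). Of the 9 genes of this list tested, only Rgs5 lay under 0.05 before adjustment (0.0487 from edgeR), lower in the resistant group without overlap, against 2.54% and 3.38% of all genes. The 8 hepatocyte genes summed to 151.3 CPM in replicate 2 of the resistant group against 28.8 to 93.8 CPM in the others. The part of these cells in the Jag1 level was not tested. Dll4 (ENSMUSG00000027314, chromosome 2, 119325784 to 119335962, plus strand) was close to the floor, with 14, 0 and 20 counts in the sensitive and 14, 3 and 10 counts in the resistant group. The libraries with the fewest counts were replicate 2 of each group. Its log2 fold change of -0.36 had a 95% interval from -3.08 to 2.37, and the libraries of a group spread widely. Its exons overlap those of Gm14207 on the other strand.

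Neither Notch target gene separated the groups. Hey1 (ENSMUSG00000040289, chromosome 3, 8663359 to 8667256, minus strand) had 5.50, 9.20 and 11.5 CPM in the sensitive and 8.64, 7.23 and 6.76 CPM in the resistant group. All 3 resistant libraries lay inside the sensitive range. On the log2 scale the difference was -0.30 (standard error 0.37, 95% interval -1.17 to 0.56, adjusted p = 0.940 from edgeR). Hes1 (ENSMUSG00000022528, chromosome 16, 30064384 to 30067796, plus strand) had 10.7, 13.8 and 4.28 CPM in the sensitive and 10.3, 5.01 and 5.93 CPM in the resistant group, again inside the sensitive range. Its log2 fold change was -0.54 (standard error 0.51, 95% interval -1.75 to 0.66, adjusted p = 0.940 from edgeR), and -0.07 without replicate 2 of the sensitive group.

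**Figure D2:**
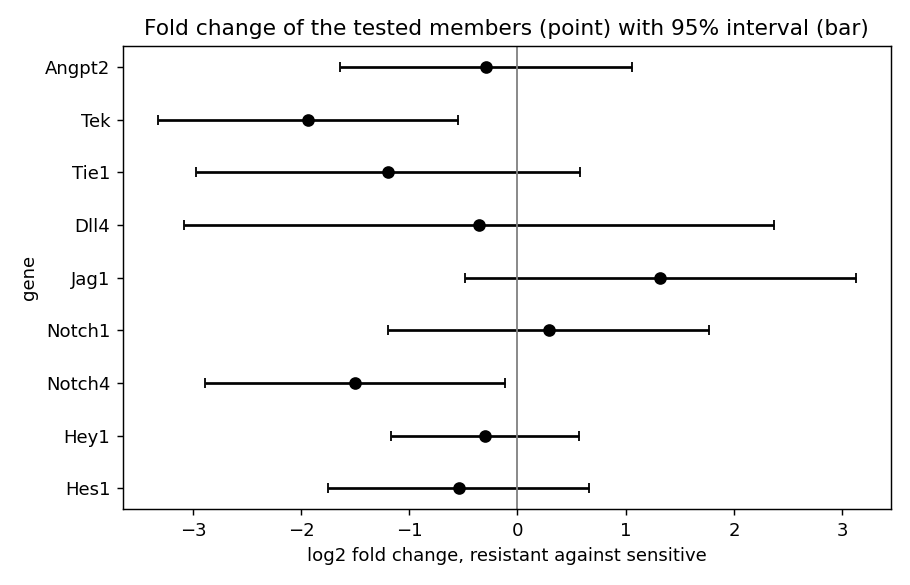
Log2 fold change of resistant against sensitive libraries (horizontal axis) for the 9 members tested, as points with 95% intervals from edgeR's fit. The intervals of Tek and Notch4 lie under 0 before adjustment over all genes, and that of Dll4, from -3.08 to 2.37, is the widest.

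Of the 35 other genes of the Notch pathway, 26 were tested and 0 passed the adjusted threshold with edgeR or DESeq2. Before adjustment 0 lay under 0.05 with either tool, against 3.08% of all genes with edgeR. With replicate 2 of the sensitive group left out 1 did, lower in the resistant group, as did 440 of 15965 genes in that direction. Without replicate 2 of both groups it was also 1, lower, against 292 of 15713 genes. There were 17 with a positive and 9 with a negative log2 fold change, with a median of 0.08. Over all genes tested 7855 were positive and 7619 negative, with a median of 0.01. Of the other ligands Dll1, Dll3, Jag2 and Dlk1, only Jag2 passed the filter (named after its values were seen). It had 2.39, 0 and 3.94 CPM in the sensitive and 1.21, 1.01 and 1.09 CPM in the resistant group. Of the other receptors, Notch3 did not pass the filter. Notch2 had 205, 53.7 and 185 CPM in the sensitive and 180, 154 and 155 CPM in the resistant group, a log2 fold change of 0.12 (standard error 0.41). As for Notch1, the low library was replicate 2 of the sensitive group, which held the lowest level of 19 of the 26 genes (73.1%), against 47.6% of all genes tested.

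The processing genes, which encode proteins that glycosylate, cut, ubiquitinate or otherwise process Notch receptors and their ligands, all passed the filter except Dtx1. Among the 18 tested, 11 had a positive and 7 a negative log2 fold change, none past the threshold. Aph1b, a subunit of gamma-secretase, had 15.3, 5.85 and 13.6 CPM in the sensitive and 15.7, 13.4 and 23.6 CPM in the resistant group, a log2 fold change of 0.57 (standard error 0.38). Mfng, a glycosyltransferase that tunes which ligands a receptor answers, had 7.29 ± 1.15 and 5.36 ± 2.54 CPM (SD, n = 3) and a difference of -0.53 on the log2 scale (standard error 0.40). Of the 6 genes of the nuclear complex, 5 had a positive log2 fold change. That of the coactivator Maml2 was 0.28, under its standard error of 0.45. The other target genes Hey2, Heyl, Hes5 and Nrarp summed to at most 0.713 CPM in a library and none passed the filter.

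Per kilobase of gene length, the members' FPKM in the sensitive group ran from 4.70 ± 2.37 for Hes1 through 3.74 ± 2.70 for Notch1, 3.24 ± 1.56 for Angpt2, 3.02 ± 0.344 for Tek, 2.97 ± 1.13 for Notch4, 2.68 ± 0.931 for Hey1, 2.40 ± 1.49 for Jag1 and 1.97 ± 0.726 for Tie1 (SD, n = 3 for each). Neighbours in this order differed by less than their spread. Dll4 and Angpt1 followed at 0.146 ± 0.131 and 0.0621 ± 0.0540 FPKM. In the resistant group the order was Jag1 at 5.92 ± 5.30, Notch1 at 4.60 ± 0.667, Hes1 at 3.47 ± 1.38, Angpt2 at 2.78 ± 1.89, Hey1 at 2.31 ± 0.299, Notch4 at 1.13 ± 0.676, Tie1 at 0.937 ± 0.693 and Tek at 0.838 ± 0.588 FPKM, with Dll4 and Angpt1 again last. In this order Hey1 and Notch4, and Tek and Dll4, differed by more than either spread, and the other neighbours from Jag1 to Tek did not. Tek and Notch4 thus stood among the middle members of the sensitive group and next to Tie1 in the resistant one.

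The members with the lowest levels in replicate 2 of the resistant group were read against the endothelial RNA of each library. Before adjustment, 5 of the 16 pan-endothelial genes (Kdr, Erg, Emcn, Egfl7 and Vwf, named after their values were seen) lay under 0.05 with edgeR, each lower in the resistant group, and 7 did not overlap between the groups in that direction, against 2.54% and 3.38% of all genes. Their median log2 fold change was -0.94. Erg, an ETS transcription factor of endothelium, had 9.78, 12.2 and 14.3 CPM in the sensitive and 5.60, 2.17 and 3.64 CPM in the resistant group, a log2 fold change of -1.76 (standard error 0.41, adjusted p = 0.940 from edgeR). Vwf, which encodes von Willebrand factor, had 17.6 ± 1.13 and 8.75 ± 0.363 CPM (SD, n = 3), Pecam1 had a log2 fold change of -0.93 with overlapping groups, and Cdh5 one of -0.0011 with 195, 42.0 and 219 CPM in the sensitive and 216, 18.0 and 234 CPM in the resistant group. Of the 11 LSEC genes tested, led by Stab1, 0 lay under 0.05 before adjustment with edgeR, with a median of -0.36. Stab2, a scavenger receptor, had a log2 fold change of -0.69 and Lyve1, a hyaluronan receptor, one of 0.54.

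As a percentage of the summed CPM of the 16 pan-endothelial genes, Tek stood at 3.44, 4.67 and 2.46% in the sensitive and 1.43, 1.14 and 0.948% in the resistant group. The groups still did not overlap (exact permutation test, two-sided, p = 0.1), and replicate 2 of the resistant group lay between the other resistant libraries on this scale. Tek was the 1 member lower without overlap, as were 0.304% of all genes tested, while 11.1% were higher. Among the 16 pan-endothelial genes, each set against the other 15, Pecam1, Egfl7 and Sox17 (named after their values were seen) were lower without overlap and 0 were higher. Cdh5 made up between 14.6% and 51.3% of the sum, and without it Tek was still apart, at 4.15% or more against 2.73% or less. Notch4 overlapped, with 5.28, 11.4 and 2.70% in the sensitive and 2.59, 3.19 and 2.79% in the resistant group (exact permutation p = 0.3). Tie1 overlapped at 1.23, 4.44 and 1.97% against 1.59, 0.855 and 1.28%. Angpt2 stood at 2.76 ± 0.822% and 3.48 ± 1.35% (SD, n = 3). Jag1 and Notch1 reached 78.1% and 75.4% of the sum in replicate 2 of the resistant group, where the sum was small, against at most 5.22% and 16.3% in the other libraries.

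**Figure D3:**
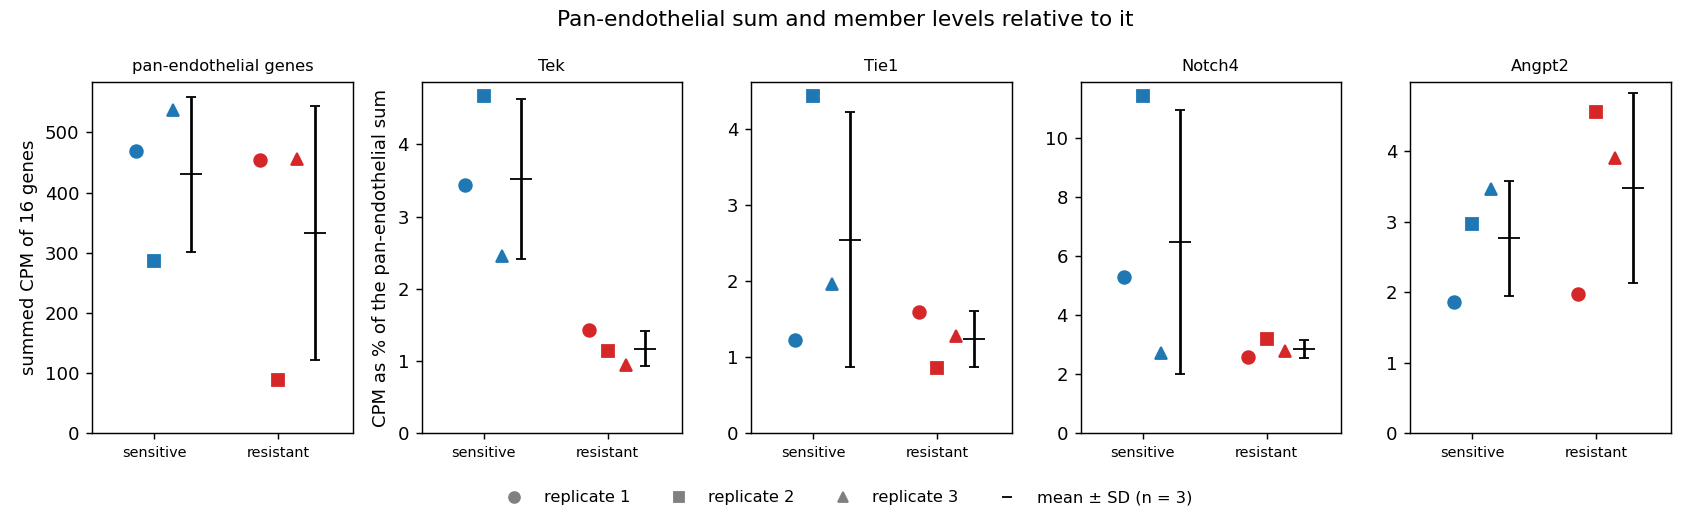
Left, summed CPM of the 16 pan-endothelial genes; right, CPM of Tek, Tie1, Notch4 and Angpt2 as a percentage of that sum, per library (symbols as replicate numbers) with the mean ± SD of 3 libraries. The sum is 88.8 CPM in replicate 2 of the resistant group, and only Tek of the 4 genes keeps its groups apart, with 0.948 to 1.43% against 2.46 to 4.67%.

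Likeness over the 6 libraries was measured as the root mean square difference of log2 CPM, each gene centred on its own mean, among 12350 genes that are no members. Nearest to Tek, whose own spread on this scale was 1.34, were Cyp4b1 (0.335) and Ttc9 (0.350), and the nearest pan-endothelial gene was Sox17 (0.366), an endothelial transcription factor. The nearest gene of the macrophage list was Timd4 (0.5), a receptor of resident Kupffer cells, which like Tek did not overlap between the groups. It had 110, 138 and 94 CPM in the sensitive and 82, 12.4 and 20.1 CPM in the resistant group (log2 fold change -1.70, unadjusted p-value 0.0371 and adjusted p = 0.940 from edgeR, named after its values were seen). Of the 15 genes of that list, Timd4 was the only 1 under 0.05 before adjustment with edgeR or without overlap. Over all genes tested, 2.54% lay under 0.05 and 3.38% did not overlap in that lower direction. The log2 fold change was positive for 6 of the 15 and negative for 9. Notch4, with a spread of 1.13, was nearest to Egfl7 (0.333), a gene secreted by endothelium, and Mef2b (0.340). Tie1 was nearest to Bace2 (0.250) and Itgb3 (0.267), and Angpt2 to Tspan9 and Rbfox3 (0.317 each), with Eng the nearest pan-endothelial gene (0.372). Jag1 was nearest to Ptprn (0.296) and to the collagen gene Col5a1 (0.397). No pan-endothelial gene came closer to Jag1 than Eng at 1.37, over its own spread of 1.14. Its nearest gene of the macrophage list was Cd68 at 0.797. Notch1 was nearest to Fan1 (0.0488) and 2210406H18Rik (0.102), and Hes1 to Fbxl22 (0.110) and Nr1h3 (0.135). For Notch1, with a spread of 0.998, the nearest pan-endothelial gene was Sox18 (0.934) and the nearest macrophage gene Adgre1 (0.456). For Hes1, with a spread of 0.641, they were Kdr (0.667) and Spi1 (0.484). Hey1 was nearest to C1qc (0.106), a complement gene of the macrophage list, and then to Gm11847 (0.130). Its own spread was 0.387, and its nearest pan-endothelial gene was Vwf (0.524). For Tie1, Notch4 and Angpt2 the nearest macrophage gene lay farther than the nearest pan-endothelial gene. It was Timd4 for Tie1 (0.774) and Notch4 (0.694), and Cd5l for Angpt2 (0.658). With 6 points and 12350 candidates, these matches are given as a description.

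**Figure D4:**
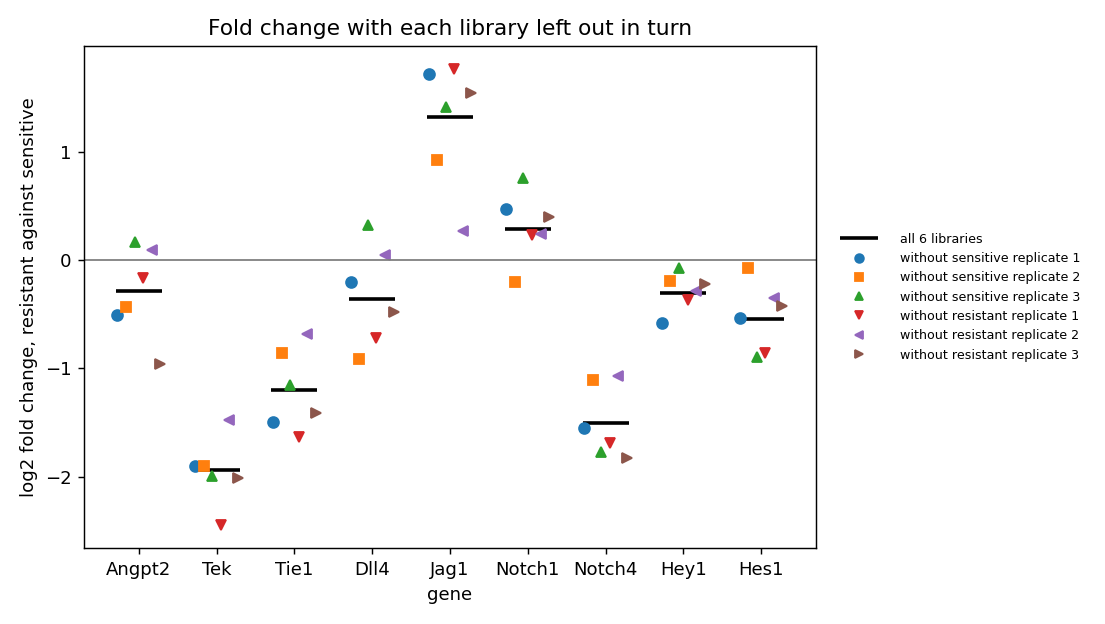
Log2 fold change of resistant against sensitive libraries (vertical axis) for the 9 members tested, with all 6 libraries (black bars) and with each library left out in turn (symbols). Tek stays between -2.45 and -1.48, whereas Angpt2, Dll4 and Notch1 have points on both sides of 0.

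With 1 library left out at a time, Tek kept an unadjusted p-value under 0.05 in all 6 fits of edgeR, from 0.00537 to 0.0329, with adjusted values between 0.659 and 1. Notch4 stayed between -1.83 and -1.07 on the log2 scale and Tie1 between -1.63 and -0.69. Jag1 ranged from 0.27 to 1.77, Notch1 from -0.20 to 0.76 and Dll4 from -0.92 to 0.33. Hey1 ranged from -0.58 to -0.08 and Hes1 from -0.90 to -0.07.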

How the data were processed

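Libraries labelled as LSECs from bevacizumab-sensitive and bevacizumab-resistant HCT116 xenografts (3 each) were grouped by their titles. The authors aligned paired-end reads with HISAT2 2.0.5 and counted them with featureCounts 1.5.0-p3, and deposited whole counts per gene without normalization. Ribosomal RNA depletion is named in the labels, and poly(A) purification as well in the methods. The strand setting of the counting is not given in the sources used here. The authors also deposited FPKM values, which were made from the count and one length per gene. The submitters' processing notes name mm9. The lengths implied by the FPKM values equalled, within 0.5 bases, the summed exons of GENCODE M21 (GRCm38) for 98.1% of 28068 matched genes and all 10 members, so positions are those of GRCm38 by Ensembl identifier. A table of the authors' own comparison (group means, fold changes and p-values) was not used.

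Genes were filtered with filterByExpr, normalized by TMM and tested with edgeR 4.0.16 (quasi-likelihood, robust, two-sided, no covariate) in R 4.3.3, with Benjamini-Hochberg adjustment over 15474 genes and a threshold of 0.05. Standard errors and 95% intervals are those implied by the F statistic. CPM are counts scaled to the library total, and log2 CPM for likeness used a prior count of 2. The test was run first on simulated data with a smaller spread between libraries than these have. That run does not tell how large a change could be called here. Alternatives were DESeq2 1.42.0 and its size factors, limma 3.58.1 (voom, and log2(FPKM + 1)), library totals, other filters, the replicate number as a block and leaving out libraries. Named besides the members are up to 2 genes of each pathway list with the largest fold change at an average log2 CPM of at least 1, the leading and the fixed markers, and for likeness the 2 nearest genes of members with at least 10 counts in every library. One gene that this rule would name is not reported here. Members and lists were chosen with earlier results of these data known. Total counts per library were between 17599326 and 20726684, without molecular identifiers. Figures were drawn with matplotlib 3.10.9.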

Additional observations from a re-analysis of the deposited data

How the results depend on the processing

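With edgeR 0 genes passed the adjusted threshold, against 24 with DESeq2's Wald test, 2 when low counts were not filtered, and 0 under the remaining alternatives, from 0 to 0 with a library left out. For the members, the other Tie genes and the other Notch genes it was 0 in every alternative run. Before adjustment 476 genes lay under 0.05, 732 with DESeq2, 2036 without the filter, and from 167 (without replicate 3 of the resistant group) to 1056 (without replicate 3 of the sensitive group), with 245 when replicate 2 of the resistant group was left out.

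Members without overlap in CPM were 2, both lower, and from 2 to 4 with a library left out. Without replicate 1 of the sensitive group they were 4, all lower, against 6.04% of all genes tested, and without replicate 1 of the resistant group 3, with Jag1 higher and 2 lower. With 2 libraries against 3, from 4.63% to 11.5% of all genes were lower and from 7.14% to 14.7% higher without overlap. Relative to the pan-endothelial sum there was 1, Tek. With the LSEC list in its place there were 2, Tek and Tie1, both lower, with Tie1 at 0.694% or more against 0.678% or less. The share of all genes without overlap relative to the LSEC list was not computed. Relative to the pan-endothelial sum with a library left out there were from 1 to 3, Tek being lower in each. Added to it were Tie1 and Notch4, lower, without replicate 1 and 3 of the sensitive group, Angpt2 and Jag1, higher, without replicate 1 of the resistant group, and Notch1, higher, without replicate 3 of that group. Of all genes from 0.355% to 4.08% were lower and from 11.2% to 27.1% higher there. Without Cdh5 in the sum (chosen after seeing the data) it was 1.

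Of 134 log2 fold changes of 9 members under the alternatives, 124 kept their direction and 10 turned. With a library left out Angpt2 ranged from -0.96 to 0.17 (0.09 without replicate 2 of the resistant group), Dll4 from -0.92 to 0.33 (0.05 without the same library) and Notch1 from -0.20 to 0.76. Dll4 was 0.31 with limma-voom and 0.11 with the replicate block. Without replicate 2 of both groups (chosen after seeing the data) Jag1 was -0.13, Notch1 -0.25 and Hes1 0.10. The cause was not tested. Over the alternatives the adjusted p of Tek lay between 0.231 and 1 and that of Notch4 between 0.597 and 1, with edgeR, DESeq2 or limma.

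No pairing of samples with the same number is stated in the labels. Their deviations from the group means correlated at -0.001, 0.034 and 0.194, and 3 of 6 libraries correlated best with their own number. Whether samples of the same number shared a batch was not tested. A block for the replicate number gave 0 genes past the adjusted threshold, 467 before adjustment and 1 member, Tek (-2.20, unadjusted p-value 0.0127 from edgeR), with Notch4 at 0.0782, and 1 of the other Tie genes. Angpt1 and Dll4 had at most 20 counts in a library.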

Other observations

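Markers of other cell types also varied between the libraries. The 8 neutrophil genes, led by S100a9, summed to 4048, 6173 and 270.2 CPM in sensitive libraries 1, 2 and 3 and to 1642, 829.7 and 192.8 CPM in the resistant ones. All 8 had a negative log2 fold change (median -2.01), and 2 of them (Retnlg and Csf3r, named after their values were seen) lay under 0.05 before adjustment with edgeR and 0 after it. Of all 15474 genes tested, 2.54% lay under 0.05 in that direction and 7619 had a negative log2 fold change. Retnlg had 264, 939 and 9.24 CPM in the sensitive and 38.8, 34.7 and 11.3 CPM in the resistant group, which overlapped. The 8 hepatocyte genes, led by Alb, summed to between 28.8 and 83.1 CPM in the sensitive and between 61.2 and 151.3 CPM in the resistant group, with a positive log2 fold change for each of the 7 tested. Of these 1, Hnf4a (named after its values were seen), lay under 0.05 before adjustment with edgeR and did not overlap between the groups, with 8, 0 and 2 counts in the sensitive and 11, 12 and 47 counts in the resistant libraries. Of all 15474 genes tested, 7855 had a positive log2 fold change, 83 lay under 0.05 in the higher direction and 776 were higher without overlap. The 7 cholangiocyte and other epithelial genes, led by Cldn4, summed to between 3.50 and 100.9 CPM in the sensitive and between 46.8 and 92.4 CPM in the resistant group. Their part in the levels of the angiopoietin, Tie and Notch genes was not tested.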
